A study of Mus musculus with 12 samples.

Results

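Tyrobp, Fcer1g, Lyz2, Csf1r, Cd68, Ctss, C1qa, C1qb and Apoe are 9 transcripts of macrophages and other myeloid cells, described here in RNA from transferred CD4 T effector cells taken back from 2 tissues. They were found by gene symbol, as 9 of 24374 genes and 14 of 36285 transcript entries in the deposited matrix of FPKM (fragments per kilobase of transcript, scaled to the mapped fragments of the library), with the entries of a gene summed. The cells came from female mice of the diabetes-prone strain NOD, called WT origin, or of NOD.InsY16A Tg, a transgenic line on that strain, called Y16A origin. All donors were 6 to 8 weeks old and immunised with insulin C19A. Their splenocytes were cultured for 2 weeks with 10 µM peptide, which the series design names as InsB9-23. CD4 T cells were then purified to over 95% with under 1% Foxp3+ cells, and 5000000 were given to each female NOD.scid recipient of 8 to 10 weeks. Each of 6 recipients, 3 per origin, gave 1 islet and 1 spleen library, so that 12 libraries fall into 4 groups of 3.

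NOD.scid hosts lack T and B lymphocytes of their own but keep macrophages, neutrophils and other innate cells. The labels give the purification of the donor cells only; no sort of what was recovered from islets and spleen is given. Pancreas is the word in the titles of the islet libraries, whose tissue entry is pancreatic islets. The genotype entry gives NOD for every islet library and NOD.Y16A for every spleen library, against the titles and the design text; the titles were used. The T cell marker Cd3e was at 266 to 501 FPKM in the islet libraries and 204 to 299 FPKM in the spleen libraries, and Cd4, the marker of the labelled cells, was at 64.1 to 129 and 66.0 to 117 FPKM. The colipase gene Clps, a product of pancreatic acinar cells, was at 329 to 1059 FPKM in the islet libraries and 0 to 1.04 FPKM in the spleen libraries. Depth, estimated from the steps of low FPKM values, was about 4270000 to 8040000 fragments per library, so 3 fragments on a transcript of 1500 bases equal 0.249 to 0.468 FPKM.

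Tyrobp encodes DAP12, a small membrane adaptor that pairs with activating receptors of myeloid and natural killer cells and signals through the kinase Syk by a tyrosine motif called ITAM. Fcer1g encodes the common gamma chain of Fc receptors, a second adaptor of the same kind. Csf1r is the receptor by which macrophages and monocytes receive the growth factor Csf1, Cd68 and the protease cathepsin S (Ctss) belong to their endosomes and lysosomes, and Lyz2 is the lysozyme they secrete. C1qa and C1qb encode chains of C1q, which starts the classical complement pathway, and Apoe is the apolipoprotein that macrophages release with cholesterol. In islets and spleen, resident macrophages are a known source of several of these transcripts. Which cells in these libraries held them, the recovered T cells included, was not tested.

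Lyz2 has a close copy, Lyz1, beside it on chromosome 10 (chr10:117277541-117282272 for Lyz2 and chr10:117287795-117292868 for Lyz1, GRCm38). The coding sequences have 447 bases each and differ at 22 of them, an identity of 95.08%, and the longest stretch they share without a difference is 118 bases. The first 90 coding bases are shown, since reads that hold none of the differing bases, written in capitals, cannot be assigned to 1 copy. The sequences are from the GENCODE transcripts of release M21.
Lyz1: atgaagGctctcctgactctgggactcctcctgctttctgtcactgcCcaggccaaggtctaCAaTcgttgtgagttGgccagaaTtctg
Lyz2: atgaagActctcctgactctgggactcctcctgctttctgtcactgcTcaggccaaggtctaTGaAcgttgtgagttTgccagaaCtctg

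RefSeq promoters (GRCm38.p6) were on hand for 6 members, and 2 are shown because Fcer1g and C1qb had the next largest islet against spleen differences after Tyrobp over both origins. Each run is the 250 bases before the start, both on the minus strand: chr1:171234350-171234599 for Fcer1g and chr4:136886201-136886450 for C1qb. Capitals mark GAGGAA, letters of the kind bound by the myeloid factor PU.1, which hold the GGAA core of the whole ETS family.
Fcer1g: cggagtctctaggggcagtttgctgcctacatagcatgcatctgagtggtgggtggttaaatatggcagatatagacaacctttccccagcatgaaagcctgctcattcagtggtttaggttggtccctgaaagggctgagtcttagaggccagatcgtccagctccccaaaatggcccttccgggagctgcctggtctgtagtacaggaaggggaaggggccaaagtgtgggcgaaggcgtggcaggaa
C1qb: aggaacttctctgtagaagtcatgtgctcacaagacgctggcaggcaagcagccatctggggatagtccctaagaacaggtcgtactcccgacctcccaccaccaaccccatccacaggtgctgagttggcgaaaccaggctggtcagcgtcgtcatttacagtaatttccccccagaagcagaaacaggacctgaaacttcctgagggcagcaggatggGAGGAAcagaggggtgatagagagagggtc

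Searched on both strands, GAGGAA was found in 23.3% of 32851 promoters of this length, and TTGCNNAA, a pattern of C/EBP factors, in 9.56%. Neither pattern holds the other, and in no member did their matches overlap. In C1qb the GAGGAA begins 30 bases before the start (-30), in Ctss at -164 and in Cd68 at -225. Of the 3 starts listed for Apoe, 1 has it at -250 and 1 at -132. TTGCNNAA was found in Cd68 alone among the 6, at -43, and neither pattern was found in Fcer1g or Lyz2 in this window. These matches are letters in a window and no measure of binding.

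Of the 8 members tested, Tyrobp was the one called between tissues in the fit without the mouse as a block. In the islet libraries of WT origin it was listed at 5.82, 0.577 and 3.14 FPKM (replicates 1, 2 and 3), and in those of Y16A origin at 0, 0 and 5.41 FPKM. The spleen libraries held 41.2, 17.2 and 25.6 FPKM (WT origin, 28.0 ± 12.2, SD, n = 3) and 70.0, 48.4 and 23.0 FPKM (Y16A origin, 47.2 ± 23.5, SD, n = 3). All 6 islet values, 0 to 5.82 FPKM, lay below all 6 spleen values, 17.2 to 70.0 FPKM.

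The changes below are differences of log2(FPKM + 1), a scale that understates the change of low genes. Printed changes and intervals are relative to the median change of well expressed genes. The p values are from limma before that centring, with Benjamini-Hochberg adjustment over 10081 genes. Averaged over both origins, Tyrobp was lower in islet by a log2 change of -4.00 (SE 0.50, 95% interval -5.06 to -2.94, limma adjusted p = 0.00016), in 6 of 6 mice. This comparison called 2.3% of the genes tested, 189 higher (1.87%) and 43 lower in islet (0.427%); with the libraries centred on their median, limma called 150 higher and 96 lower, and Tyrobp remained among the lower ones. The tissues were apart in 1.97% of genes, and in 30 genes (0.298%) every islet value lay below every spleen value. Among the 8 members tested, Tyrobp alone was called in this fit, which has no block for the mouse.

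Within Y16A origin the log2 change of Tyrobp was -4.89 (SE 0.71, limma adjusted p = 0.00148), where 1.16% of genes were called, 0.962% higher and 0.198% lower, and 3.68% had every islet value below every spleen value. Within WT origin it was -3.10 (SE 0.71, 95% interval -4.60 to -1.61), and at a limma adjusted p of 0.0723 it did not pass, although the 3 islet values lay below the 3 spleen values there as well; 0.813% of genes were called (0.635% higher and 0.179% lower) and 3.87% were apart in that direction. The difference between the origins was itself tested, and at -1.78 (SE 1.00, limma adjusted p = 1.00) it did not pass. By group mean the order from high to low was spleen Y16A, spleen WT, islet WT and islet Y16A. No pair of neighbours in this order passed: spleen Y16A against spleen WT had limma adjusted p = 1, spleen WT against islet WT 0.0723 and islet Y16A against islet WT 0.966.

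At the estimated depth, 3 fragments on the 564 bases of Tyrobp equal 0.661 to 1.245 FPKM, so the islet WT 2 value lies under that level and the islet values of 0 allow that much. In bulk RNA, fewer cells of a type and less RNA per cell cannot be told apart, here and in every comparison that follows.

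**Figure D1:**
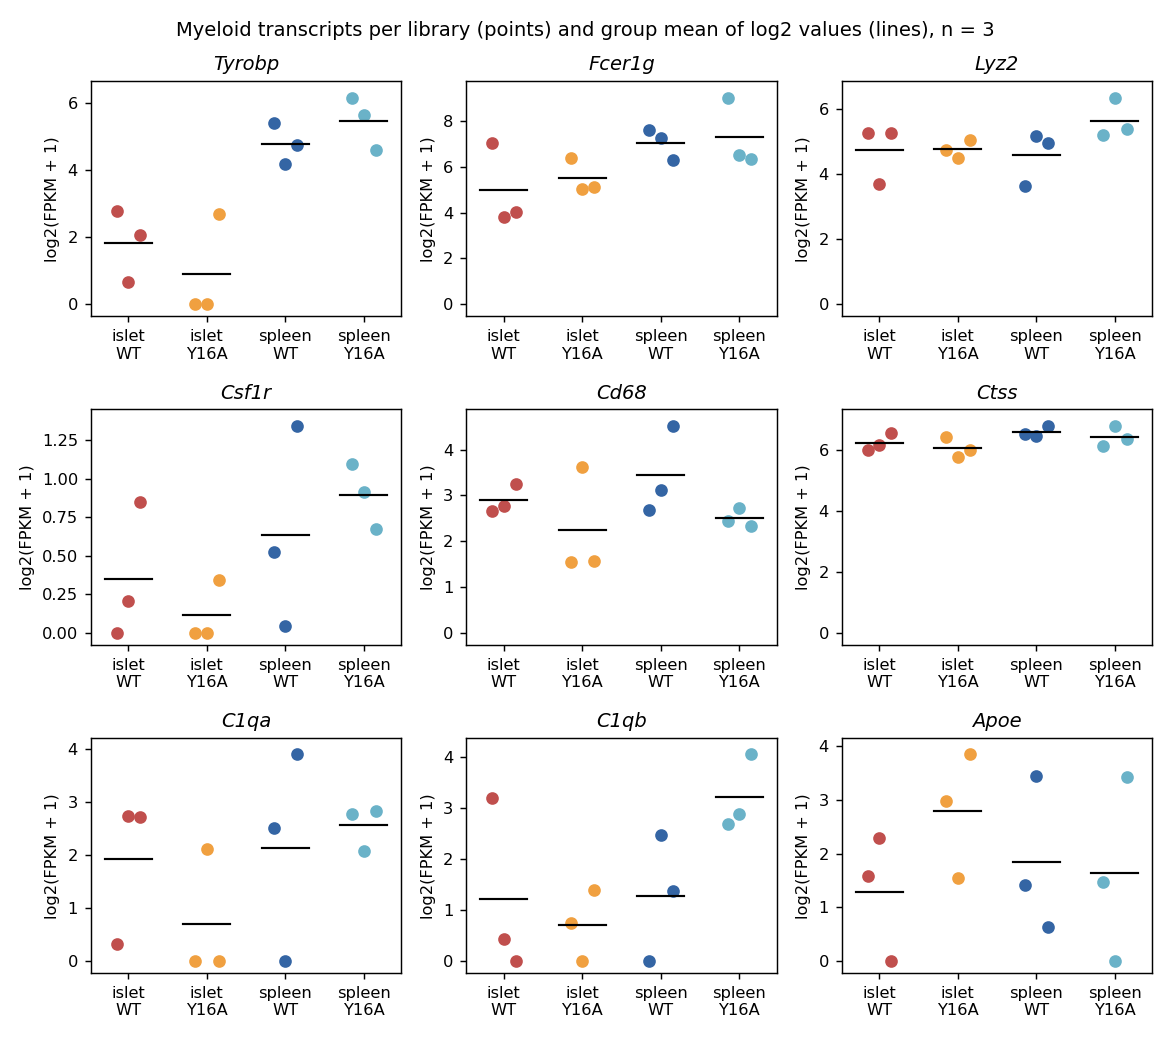
Level of each of the 9 transcripts as log2(FPKM + 1) on the vertical axis for the 4 groups of 3 libraries. Points are libraries and lines are group means; the 6 islet values of Tyrobp lie below its 6 spleen values, whereas the 6 islet and 6 spleen values of each other member overlap.

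Tyrobp lies at chr7:30413782-30417582 (GRCm38), next to Hcst, the gene of the adaptor DAP10, which activates a different kinase pathway. Hcst, chosen after its values were seen, was not called. It was at 287, 474 and 504 FPKM in islet WT, 881, 514 and 422 FPKM in islet Y16A, 236, 439 and 258 FPKM in spleen WT and 561, 271 and 247 FPKM in spleen Y16A. The islet value was the higher one in 6 of 6 mice, and the log2 change over both origins was 0.37 (SE 0.26, limma adjusted p = 0.289), which did not pass.

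Fcer1g and Ctss were the most abundant members, with Ctss above Fcer1g in 5 of 6 islet libraries and 3 of 6 spleen libraries. Fcer1g was at 134, 13.3 and 15.4 FPKM in islet WT and 83.2, 31.8 and 33.8 FPKM in islet Y16A. In spleen it was at 199, 152 and 78.4 FPKM (WT) and 528, 91.5 and 80.8 FPKM (Y16A). Islet WT 1 and islet Y16A 1 reached into the spleen range, so the tissues overlapped, but each mouse had less Fcer1g in islet than in its own spleen (6 of 6).

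Over both origins the log2 change of Fcer1g was -2.19 (SE 0.64, 95% interval -3.60 to -0.77, limma adjusted p = 0.202), which did not pass. With the mouse as a block in limma the same change passed at adjusted p = 0.00672. Without islet WT 1, the islet library with the highest value, it was -2.79 and passed at a limma adjusted p of 0.011. Within WT origin it was -2.24 and within Y16A origin -2.12 (SE 0.91 each, limma adjusted p = 0.555 in both). Spleen Y16A 1, the highest library, is also the highest for Tyrobp, and across the 12 libraries the correlation of the 2 adaptors on the log2 scale was 0.70, a description in which the tissue difference takes part.

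**Figure D2:**
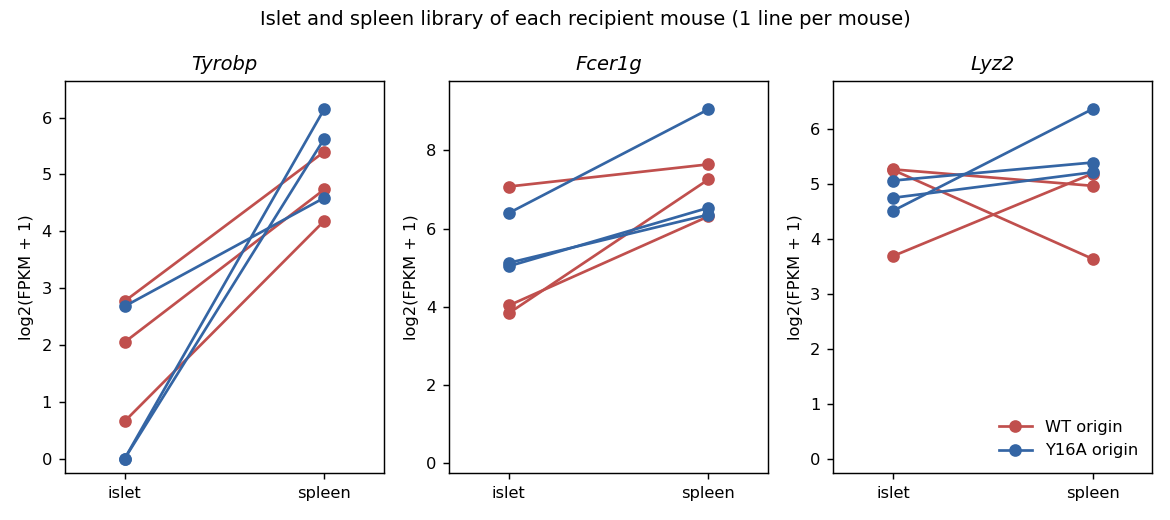
Islet and spleen level, log2(FPKM + 1), of Tyrobp, Fcer1g and Lyz2, with 1 line for each of the 6 recipients, red for WT and blue for Y16A origin. Every line of Tyrobp and Fcer1g rises from islet to spleen, and 4 of 6 do for Lyz2.

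Few of the receptors that use these adaptors were measured above the filter. Of 17 partner receptors of Tyrobp, 5 passed the filter of 1 FPKM in 3 libraries and 0 were called in limma in any comparison. The highest were the natural killer receptor chains Klrd1, at 13.3 to 66.1 FPKM in islet and 10.7 to 44.1 FPKM in spleen, and Klrc2, at 0 to 5.45 and 0.821 to 7.23 FPKM. Trem2, the macrophage partner of DAP12, was listed at 0 in all 12 libraries.

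Of 12 partner receptors of Fcer1g, 11 were in the matrix, 4 were tested and 1 was called. Fcgr4, an activating Fc receptor of monocytes and neutrophils, was at 0, 1.13 and 0.151 FPKM in islet WT and 0.158, 0.268 and 0.808 FPKM in islet Y16A. In spleen it was at 5.41, 5.44 and 3.27 FPKM (WT) and 2.19, 4.35 and 2.82 FPKM (Y16A). The islet values all lay below the spleen values, and over both origins Fcgr4 was lower by -2.04 (SE 0.33, limma adjusted p = 0.00411). Its islet values alone would not have passed the filter. It was also called within WT origin (-2.21, SE 0.47, limma adjusted p = 0.0463), while within Y16A origin it was -1.87 (adjusted p = 0.183). The call over both origins held in 20 of 20 alternative settings, and that within WT origin was lost in 10 of 14 (limma adjusted p 0.0285 to 0.234), among them without either islet WT 1, islet WT 3, spleen WT 1, spleen WT 2 or spleen WT 3.

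Downstream of the motif, 11 of 18 kinases, phosphatases and docking proteins were tested, and 1 was called lower in islet over both origins and 0 within either origin in limma. Syk, the kinase that binds the motif, was at 0 to 0.486 FPKM in islet and 0 to 1.21 FPKM in spleen. The medians of the log2 changes over both origins were -0.51 for the Tyrobp partners, -0.45 for the Fcer1g partners and -0.24 for the downstream list, beside -0.96 for the 8 members tested and -0.08 for all genes tested.

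Csf1r was low throughout, at 1.54 FPKM at most, and was not tested, since it did not reach 1 FPKM in 3 libraries. It was at 0, 0.154 and 0.800 FPKM in islet WT, 0, 0 and 0.265 FPKM in islet Y16A, 0.439, 0.0297 and 1.54 FPKM in spleen WT and 1.14, 0.883 and 0.598 FPKM in spleen Y16A. On its 3870 bases, 3 fragments equal 0.096 to 0.181 FPKM. The estimated fragments were 0 to 16.8 in islet and 0.858 to 28.3 in spleen. The islet value was the lower one in 5 of 6 mice, and the tissues overlapped over both origins and within WT origin. Within Y16A origin every islet value lay below every spleen value, as in 3.68% of the genes tested.

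Of 17 genes around this receptor and of myeloid transcription factors, 11 were tested over both origins, 1 was called higher in islet and 1 lower. Cebpb, a transcription factor induced by inflammatory signals in many cells, was higher (15.99, 16.6 and 22.2 FPKM in islet WT and 19.2, 28.2 and 37.4 in islet Y16A, against 8.28, 3.38 and 7.29 in spleen WT and 15.9, 17.3 and 10.2 in spleen Y16A). Its log2 change was 0.93 (SE 0.30, limma adjusted p = 0.044), and the tissues overlapped. The call was lost in 17 of 20 alternative settings (limma adjusted p 0.0346 to 0.166). Spic, a factor of red pulp macrophages in the spleen, was listed at 0 in all 6 islet libraries and at 0, 3.61, 1.86, 3.68, 0.770 and 3.97 FPKM in spleen, and was called lower (limma adjusted p = 0.0499), a call lost in 17 of 20 (0.00917 to 0.190). Spic passed the filter through spleen libraries alone, the tissue where it is higher, so its call rests on that tissue. Csf1, the growth factor for Csf1r, was at 3.69 to 25.5 FPKM in islet and 0.946 to 5.20 FPKM in spleen, a log2 change of 1.15 that did not pass (limma adjusted p = 0.0563) except without islet Y16A 2 (0.0372).

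Lyz2 was not called in any comparison. It was at 37.3, 11.9 and 37.5 FPKM in islet WT and 25.9, 21.8 and 32.5 FPKM in islet Y16A. In spleen it was at 11.5, 35.5 and 30.3 FPKM (WT) and 36.1, 81.4 and 41.0 FPKM (Y16A). The 3 spleen Y16A libraries lay above the other 3 Y16A libraries and above the 3 spleen WT libraries, whereas the groups of WT origin overlapped.

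Its log2 change was -0.62 over both origins (SE 0.35, limma adjusted p = 0.724), -0.02 within WT origin (adjusted p = 0.982) and -1.21 within Y16A origin (SE 0.49, adjusted p = 0.580), where 18.3% of all genes did not overlap. In spleen, Y16A against WT origin was 0.98 (SE 0.49, limma adjusted p = 0.953), where 9.14% of genes did not overlap. None of these passed.

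Lyz1, the close copy, was low in both tissues. It was at 1.56, 3.94 and 0 FPKM in islet WT, 3.32, 1.60 and 1.74 FPKM in islet Y16A, 0, 0 and 0.172 FPKM in spleen WT and 0 in the 3 libraries of spleen Y16A. Its islet value was the higher in 5 of 6 mice. The log2 change of 1.15 over both origins (SE 0.37, limma adjusted p = 0.0553) did not pass. It passed without islet WT 3, the islet library at 0 (1.56, limma adjusted p = 0.00864). That library goes against the direction, so leaving it out selects for the pass. Lyz1 also passed the filter through islet libraries alone, the tissue where it is higher. Reads shared with Lyz2 make the level of either copy uncertain.

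Cd68 and Ctss were present in every library. Cd68 was at 5.27, 5.84 and 8.47 FPKM in islet WT, 1.91, 11.3 and 1.96 FPKM in islet Y16A, 5.38, 7.68 and 21.9 FPKM in spleen WT and 4.44, 5.58 and 4.01 FPKM in spleen Y16A. Its tissues overlapped within both origins, and the log2 change over both was -0.65 (95% interval -1.51 to 0.22, limma adjusted p = 0.758).

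Ctss was at 63.2, 71.3 and 94.9 FPKM in islet WT, 86.6, 54.2 and 63.5 FPKM in islet Y16A, 92.5, 88.6 and 110 FPKM in spleen WT and 69.7, 109 and 81.7 FPKM in spleen Y16A. It ranged from 54.2 to 110 FPKM over the 12 libraries and was lower in islet in 5 of 6 mice. The log2 change was -0.60 (SE 0.21, 95% interval -1.05 to -0.15), relative to the median gene. The limma test, made before that centring, had an unadjusted p of 0.117 and an adjusted p of 0.511. Interval and p value are thus not of the same quantity. With the libraries centred on their median, the limma adjusted p was 0.143, which did not pass.

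Both genes have 2 entries in the matrix, and the split between them was unstable. For Ctss the whole level sat in 1 entry in islet Y16A 2 (54.2 FPKM against 0) and in the other entry in islet WT 1 (63.2 FPKM against 0), so only the sum is read here. The other cathepsins and lysosomal genes, 21 tested of 23, had a median log2 change of -0.07 over both origins and 1 called gene. This was Ctsw, a cathepsin of T and natural killer cells rather than of macrophages, at 270 to 465 FPKM in islet and 122 to 162 FPKM in spleen. It was higher by 1.13 (SE 0.18, limma adjusted p = 8.75e-05), with all islet values above all spleen values.

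The C1q chains were low, and their values scattered between libraries. C1qa was at 0.256, 5.70 and 5.61 FPKM in islet WT, 0, 3.32 and 0 FPKM in islet Y16A, 4.71, 0 and 14.0 FPKM in spleen WT and 5.88, 3.24 and 6.10 FPKM in spleen Y16A. Its tissues overlapped within both origins, and the log2 change over both was -1.28 (SE 0.64, limma adjusted p = 0.524).

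C1qb was at 8.23, 0.352 and 0 FPKM in islet WT, 0.672, 0 and 1.61 FPKM in islet Y16A, 0, 4.56 and 1.59 FPKM in spleen WT and 5.46, 6.43 and 15.6 FPKM in spleen Y16A. The 3 spleen Y16A values lay above those of islet Y16A and of spleen WT. The log2 change of islet against spleen within Y16A origin was -2.83 (SE 0.78, limma adjusted p = 0.209), and that of Y16A against WT origin in spleen 1.86 (SE 0.78, limma adjusted p = 0.880). The difference between the origins was -2.60 (SE 1.11, limma adjusted p = 1.00), and none of these passed.

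The genes of the 3 chains lie side by side on chromosome 4 (C1qb at chr4:136880126-136886200, C1qc at chr4:136889801-136892936 and C1qa at chr4:136895916-136898844, GRCm38). C1qc, the chain that was not among the 9, was at 1.84, 2.04 and 2.78 FPKM in islet WT, 0, 0.974 and 0 FPKM in islet Y16A, 8.61, 12.7 and 0.506 FPKM in spleen WT and 1.65, 2.54 and 9.24 FPKM in spleen Y16A. Over both origins its log2 change was -1.61 (SE 0.50, limma adjusted p = 0.224). Without spleen WT 3, the spleen library with the lowest value, it was -2.13 and passed (limma adjusted p = 0.0208). The chain with the highest level was not the same in every library. Islet WT 1 held C1qb at 8.23 and C1qa at 0.256 FPKM, and spleen WT 2 held C1qc at 12.7 FPKM with C1qa listed at 0. On the log2 scale over the 12 libraries, the correlation was -0.13 for C1qa with C1qb, 0.15 for C1qa with C1qc and 0.30 for C1qb with C1qc. At the estimated depth the fragments per library were 0 to 119 for C1qb, 0 to 114 for C1qc and 0 to 69.0 for C1qa, so several of these values rest on few fragments. Of a list of complement genes that includes C1qc, 8 of 17 were tested and 0 were called in limma.

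**Figure D3:**
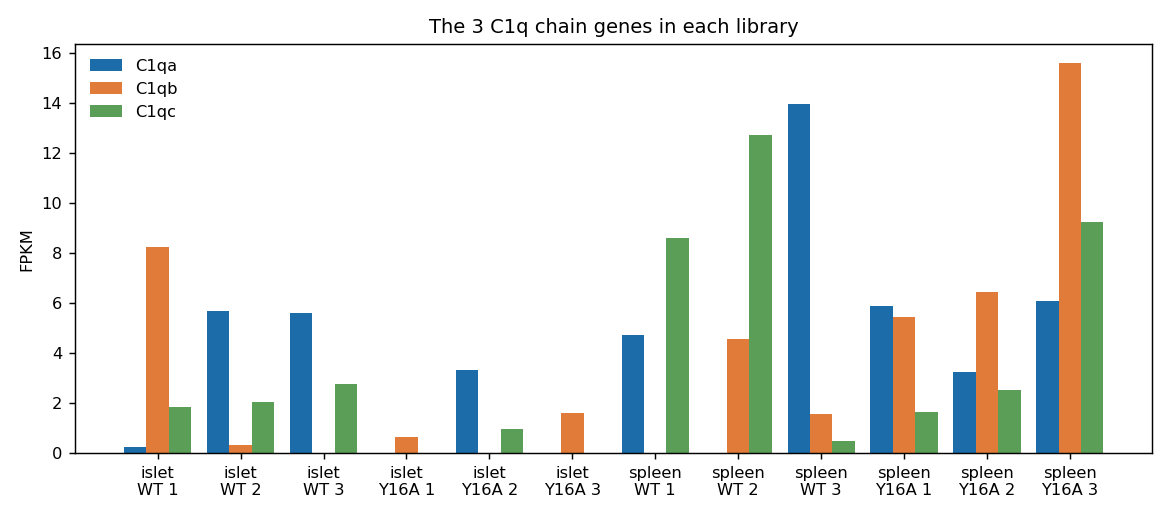
FPKM of C1qa, C1qb and C1qc on the vertical axis in each of the 12 libraries, with 1 bar per chain. The chain with the highest bar changes from library to library: C1qb in islet WT 1, C1qc in spleen WT 2 and C1qa in spleen WT 3.

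Apoe was not called in any comparison. It was at 2.00, 3.90 and 0 FPKM in islet WT, 6.92, 1.92 and 13.4 FPKM in islet Y16A, 1.68, 9.93 and 0.556 FPKM in spleen WT and 1.77, 0 and 9.81 FPKM in spleen Y16A. All groups overlapped, the islet value was the lower one in 2 of 6 mice, and the log2 change over both origins was 0.06 (95% interval -1.32 to 1.44, limma adjusted p = 0.895). Of 18 genes of lipoproteins and cholesterol export, 9 were tested and 0 were called in limma in any comparison. The highest were Nr1h2, a nuclear receptor for oxysterols, at 13.9 to 55.8 FPKM, and Fabp5, a fatty acid carrier, at 0.565 to 28.4 FPKM.

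**Figure D4:**
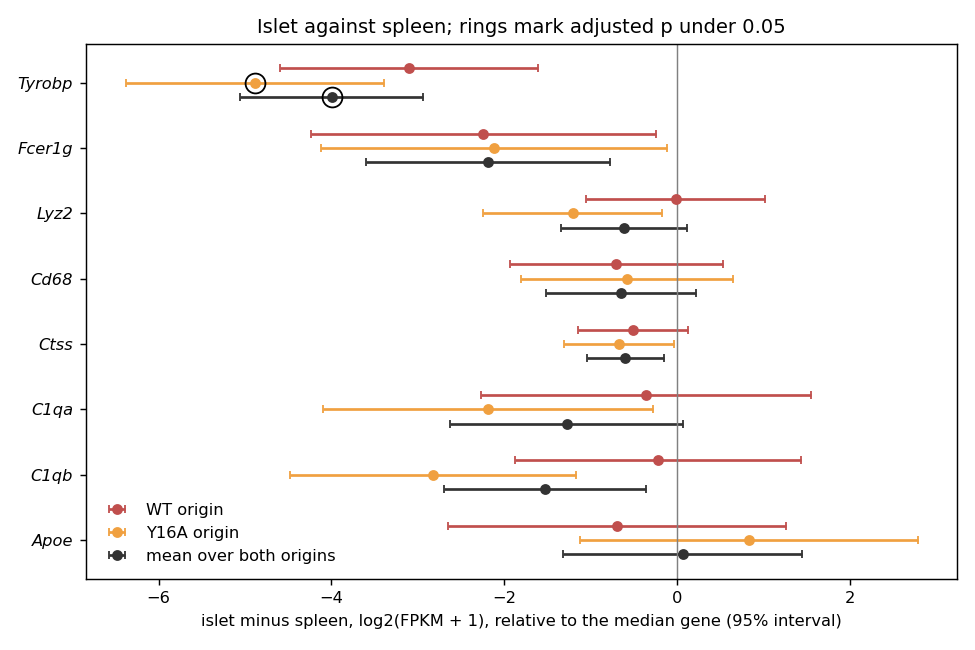
Islet minus spleen difference of log2(FPKM + 1), relative to the median gene, for the 8 members tested, with 95% intervals, in WT origin (red), Y16A origin (orange) and averaged over both (black). Rings mark a limma adjusted p under 0.05 in the fit without the mouse as a block, before the centring on the median gene. Tyrobp has it at -4.89 and -4.00 and no other member has it in that fit. With the mouse as a block, Fcer1g over both origins also passed (limma adjusted p = 0.00672).

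Between origins, 0 members were called, as was true of all 10081 genes in limma (0% called in either tissue, with 476 genes in islet and 525 in spleen at an unadjusted p under 0.05). In islet, Tyrobp had a log2 change of -1.19 (SE 0.71, limma adjusted p = 0.966), and 0 of the 8 members had groups apart, beside 10.1% of genes (2.27% with every Y16A value below every WT value). In spleen, Lyz2 and C1qb had groups apart, both higher in Y16A origin, beside 9.14% of genes apart in either direction. Of all genes tested, 3.5% were apart in the opposite direction to these 2, with every Y16A value below every WT value. Tyrobp was at 0.61 in spleen (SE 0.71, limma adjusted p = 1). The interaction of tissue and origin likewise called 0 genes (434 at an unadjusted p under 0.05).

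For islet Y16A against islet WT, the authors' deposited table lists 8 of the members in 10 entries, of which 0 are marked significant; 91 of its 9815 entries are. Fcer1g has the smallest p among them in the authors' deposited table, 0.0323 with q = 0.674, at 224 FPKM for WT and 127 FPKM for Y16A. For Tyrobp the authors' deposited table gives 12.4 and 5.60 FPKM with p = 0.485 and q = 0.812. These levels are the authors' own per condition and differ from the means of the matrix.

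Other myeloid transcripts were measured beside the members. Of 23 macrophage and monocyte markers, 10 were tested and 2 were called lower in islet over both origins: Pld4 (-1.79, SE 0.36, limma adjusted p = 0.0269), a lysosomal exonuclease of the phospholipase D family, and Clec4a3 (-1.47, SE 0.28, adjusted p = 0.0239), a lectin receptor. Clec4a3 was at 0 to 0.105 FPKM in islet, 0 to 0.308 FPKM in spleen WT and 3.70 to 4.06 FPKM in spleen Y16A. It passed the filter through the spleen Y16A libraries alone, so its call over both origins rests on that group. The call of Pld4 was lost in 12 of 20 alternative settings (limma adjusted p 0.0115 to 0.0867) and that of Clec4a3 in 11 of 20 (0.0104 to 0.107). The median of the list was -0.46. The summed level of the 23 was 23.5 to 40.5 FPKM in the islet libraries and 26.8 to 67.7 FPKM in the spleen libraries. Of the 23, 12 reached 1 FPKM in at least 1 islet library and 18 in at least 1 spleen library. Vsig4 and Adgre1 are low ones, named after their values were seen. Vsig4 was at 0 in every library. Adgre1, the F4/80 antigen that defines mouse macrophages, was at 0 to 0.653 FPKM in islet and 0 to 1.45 FPKM in spleen.

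Of 16 neutrophil markers, 9 were tested and 4 were called lower in islet over both origins, as Tyrobp was: S100a9, S100a8 and the granule proteins Camp and Ngp. S100a9, a calprotectin subunit, was listed at 0 in 6 of 6 islet libraries and at 35.2 to 111 FPKM in spleen (limma adjusted p = 4.54e-10), S100a8, the other subunit, at 0 to 2.41 and 17.6 to 127 FPKM (adjusted p = 2.5e-07). S100a9 passed the filter through the spleen libraries alone, the tissue where it is higher, so its call rests on that tissue. The summed level of the 16 was 6.15 to 31.7 FPKM in islet and 114 to 261 FPKM in spleen, and Elane was at 0 throughout. Erythroid and platelet markers summed to 5.13 to 124 FPKM in islet and 126 to 2378 FPKM in spleen, with 3 of 7 tested called lower (the beta globins Hbb-b1 and Hbb-b2 and the carbonic anhydrase Car2) and Ppbp at 0 throughout. The calls of the 4 neutrophil and 3 erythroid genes held in 20 of 20 alternative settings each. The part of these cells in the Tyrobp difference was not tested.

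Of other cells, natural killer markers summed to 88.5 to 269 FPKM in islet and 35.0 to 121 FPKM in spleen with 0 of 7 tested called in limma. The median log2 change of the 7 was -0.19 over both origins, beside -0.08 for all genes tested, so the higher islet sums were not shared by most of the list. Ncr1, a receptor that defines natural killer cells, was at 0 in 9 of 12 libraries and at 3.77 FPKM at most. Dendritic cell markers summed to 7.53 to 17.2 and 2.09 to 11.4 FPKM, with 1 of 4 tested called: Cd83, also an activation marker of lymphocytes, was higher in islet (1.60, SE 0.40, limma adjusted p = 0.017), a call lost in 3 of 20 alternatives, among them without islet WT 3 or islet Y16A 2 (0.057 and 0.0576). B cell markers summed to 0.375 to 8.19 and 0 to 4.65 FPKM, and mast cell and basophil markers to 0 to 1.14 and 0 to 8.70 FPKM. Acinar markers went the opposite way, with 20 of 20 tested called higher in islet and sums of 1624 to 6330 FPKM against 2.49 to 9.99 FPKM, in libraries whose FPKM totals were 163868 to 342434. T cell markers had a median log2 change of -0.09, and 1 of 11, Cd3g, was called higher in islet (limma adjusted p = 0.0494), a call lost in 16 of 20. The part of each of these lists in the results on the 9 transcripts was not tested.

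When each library was scaled to its T cell markers, an alternative added after the data were seen, Tyrobp was lower in islet by -3.91 over both origins (limma adjusted p = 0.000312) and by -4.68 within Y16A origin (0.00244), and it did not pass within WT origin (-3.12, 0.0646).

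Among the genes most like Tyrobp over the 12 libraries, by Pearson correlation of log2(FPKM + 1), were Ccr7 (0.94), Cdc25b (0.91), Ifitm2 (0.90) and Pld4 (0.90). Ccr7 is a homing receptor of T cells that recirculate through lymph nodes, and Pld4 is the one of these 4 in the list of macrophage and monocyte markers. Ccr7 was at 3.84 to 14.9 FPKM in islet and 43.3 to 61.0 FPKM in spleen. As for Tyrobp, the tissues were apart, so the correlations carry the tissue difference and share the libraries. For Fcer1g the nearest genes were Golga7 (0.92) and Ccr10 (0.88). For Lyz2 they were Abhd6 (0.91) and Itgb3 (0.90). For the other members tested, the nearest were Tmx3 (0.81) and Oaf (0.79) for Cd68, Zfp319 and Pcmtd2 (0.83 each) for Ctss, Ccdc51 (0.78) and Trim35 (0.77) for C1qa, Pitx1 (0.90) and Slc46a3 (0.84) for C1qb, and Pigbos1 (0.87) and Vpreb1 (0.84) for Apoe. None of these nearest genes was another of the 9. Each was picked as among the highest correlations of all named genes tested, over 12 libraries only. Whether such values exceed the highest among unrelated genes was not tested.

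**Figure D5:**
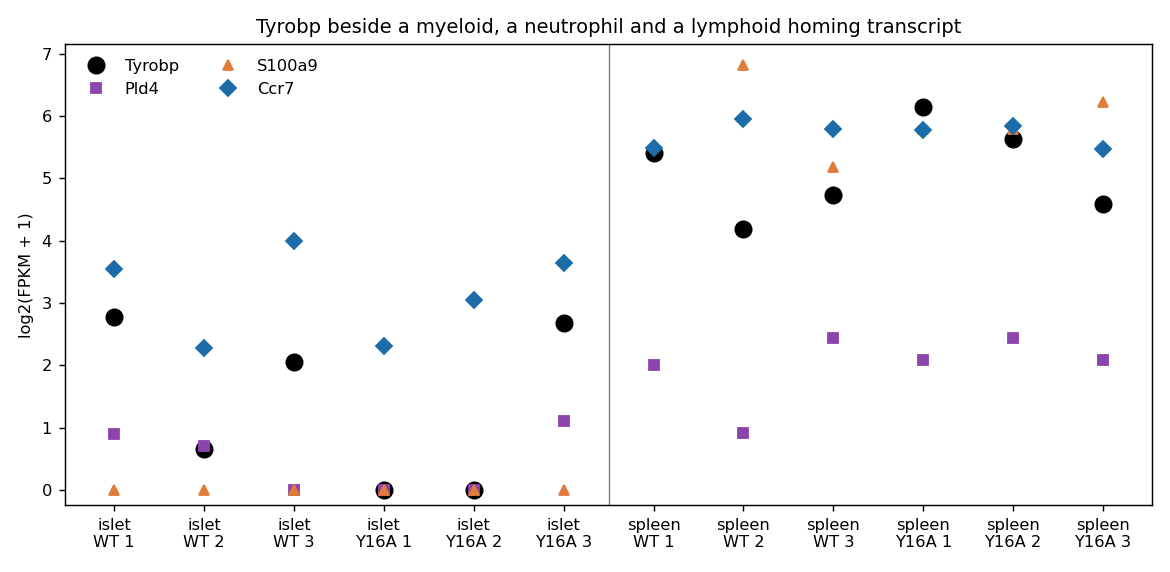
Level, log2(FPKM + 1), of Tyrobp (black), its nearest gene Ccr7, the myeloid marker Pld4 and the neutrophil marker S100a9 in each of the 12 libraries. The spleen points of Tyrobp, Ccr7 and S100a9 all lie above their islet points, while Pld4 in spleen WT 2 (0.891 FPKM) lies under its highest islet value (1.15 FPKM).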

How the data were processed

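RNA from recovered cells was lysed with Triton X-100, reverse transcribed, amplified and made into Nextera XT libraries, per the labels' protocols. The submitters' processing notes name TopHat 1.0.0, Cufflinks and mm9; filters and annotation are not given in the sources used here. The deposited matrix holds the authors' FPKM for single transcripts. The authors' deposited comparison table holds an FPKM value for each islet group, a p-value and a q-value. Its 12 loci of the members and their close relatives all overlap the GRCm38 genes, although the notes name mm9.

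Of 36285 entries, 99.68% matched a symbol and were summed to 24374 genes, 5645 of them at 0 throughout. The 10081 genes that reached 1 FPKM in 3 libraries or more, 8 of the 9 members among them, entered limma 3.58.1 under R 4.3.3 with statmod 1.5.0 as log2(FPKM + 1), with 4 group means, 8 residual degrees of freedom and trended, robust moderation; since the values are FPKM, no count test was used. A call is a Benjamini-Hochberg adjusted p under 0.05. From each printed change the median change of genes averaging over 5 FPKM was subtracted (0.155, 0.326 and 0.245 for the tissues in WT origin, Y16A origin and both, 0.256 and 0.073 for the origins in islet and spleen, 0.165 for the interaction), and p values come from the values before it. The scripts were tested on simulated data. Depth is an estimate, and floors of 3 fragments cover counting error only.

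Titles give islet and spleen libraries the same mouse, which pairs them; within a mouse the deviations from the group means correlated at 0.0066 to 0.087. No source says that recipients of an origin got separately expanded cells, so p values measure the spread between these libraries. The members and lists were chosen with earlier results of these data known. Named by rule are the members, Lyz1, C1qc, Cd3e, Clps, up to 4 called genes of a list or else its 2 highest, and the nearest 5 (Tyrobp) or 2 genes; other names were picked after seeing values, and some items are not reported here. Alternatives were a pseudocount of 0.1, no filter, quantile normalization, median centring, no trend, the replicate block, single entries and leaving out each library. Scaling to T cell markers and leaving out islet WT 1 and 2, which have the highest Ins2, were added after seeing the data.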

Additional observations from a re-analysis of the deposited data

How the results depend on the processing

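The lower Tyrobp level in islet held its call in 20 of 20 alternatives over both origins (limma adjusted p 6.06e-06 to 0.013) and in 13 of 13 within Y16A origin (6.55e-05 to 0.0324), and had no call in 14 of 14 within WT origin (0.0527 to 0.459). Alternatives were run for the tissue changes of the 8 members tested and for the changes between origins, and their interaction, that are given for Tyrobp, Lyz2 and C1qb; Csf1r, which was not tested, has none. Of these, 457 values kept direction and side of the threshold, 2 gained a call (Fcer1g, given above) and 25 turned direction, none of them called. With the mouse as replicate block, limma called 90 genes in WT origin, 133 in Y16A origin and 261 over both (75, 106 and 207 shared with the fit without it). It called 0 in the interaction. A mouse has 1 origin only, so for the origins within a tissue the block was the replicate number, which ties different mice. That fit called 0 genes in islet and 0 in spleen. Of the named genes, the block gave a call to Fcer1g and ended those of Fcgr4 within WT origin (adjusted p = 0.0814) and of Cebpb, Spic, Clec4a3 and Pld4 over both (0.0524 to 0.0582), and it changed no other call given here. The split into higher and lower calls moved with the scaling: 64 and 18 genes in WT origin and 97 and 20 in Y16A origin became 69 and 38, and 76 and 50, with quantile normalization, 74 and 24, and 74 and 47, with median centring, and 76 and 28, and 75 and 44, with scaling to T cell markers. Over both origins, 189 and 43 became 146 and 101, 150 and 96, and 150 and 84. Without the filter 139 genes were called over both origins. Between origins 1 gene each was called at a pseudocount of 0.1 in islet and in spleen, and 1 with quantile normalization in spleen. Leaving out single libraries, or islet WT 1 and 2 together, gave 52 to 91 genes in WT origin and 0 to 1 gene between origins in islet, in spleen and in the interaction; the lowest of these, 52, came without islet WT 1 and 2. The cause of these moves was not tested, beyond the fewer samples or more genes tested. The values that turned direction were, within WT origin, C1qa at a pseudocount of 0.1 (0.095), C1qb with scaling to T cell markers (0.0044) and, by single entry, Cd68 (0.64) and Ctss (1.26). Ctss by single entry was at 0.23 in Y16A origin and 0.73 over both, and Apoe at -0.028 over both. Leaving out libraries as above gave, within WT origin, -1.56 to 0.46 for C1qa, -0.46 to 0.44 for Lyz2, -1.89 to 0.60 for C1qb and -2.44 to 0.16 for Apoe, and over both origins -0.81 to 0.51 for Apoe. Csf1r, several values of the C1q chains and the islet values of Tyrobp rest on few fragments, which limits their precision.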
